A study of Homo sapiens with 54 samples.

Results

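HEK293T cells that carried the high-fidelity effector N2V8 with crRNA-13 (N2V8_S13) were compared with untransfected HEK293T cells (UT). The comparison took 6 of the 54 RNA sequencing libraries of the series, 3 in each group, and they were chosen by their labels alone. HEK293T is a human embryonic kidney line that takes up plasmid DNA readily and expresses a viral large T antigen. N2V8 is a form of RfxCas13d, an RNA-guided nuclease, with changes in 1 of its nuclease domains made to lessen cleavage of bystander RNAs. In N2V8_S13 it was expressed after transient transfection of a plasmid that held the effector under a CAG promoter and crRNA-13, directed against C9ORF72, under a U6 promoter. UT cells were not transfected, and no mock-transfected group was used here, so that transfection, plasmid DNA, the effector and the crRNA cannot be told apart in this comparison. Harvest was at 48 h by the labels, while the study's text names a later time. The treatment label of the N2V8_S13 samples reads RfxCas13d-N2V87, and their titles were followed here. N2V8 with a non-targeting crRNA (N2V8_NTG), native RfxCas13d with crRNA-13 (WT_S13) and N2V8 with 1 of 3 additional crRNAs (N2V8_S3, N2V8_S4 and N2V8_S7) were set beside it, with 3 libraries in each of these groups. All comparisons against UT share the same 3 UT libraries.

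Cas13 effectors are guided to an RNA by the spacer of their crRNA, and binding of the target switches on a nuclease site on the outside of the protein that can also cut other RNAs. C9ORF72 encodes a protein that acts with SMCR8 and WDR41 in membrane traffic and autophagy, and a repeat in its first intron is expanded in inherited forms of motor neuron disease and frontotemporal dementia. Transfected cells can meet foreign DNA and RNA with an interferon response, and loss of ribosome function or amino acids is read out by p53 and by the integrated stress response, in which ATF4 switches on amino acid synthesis, transport and tRNA charging genes. In bulk RNA, a change in the share of cells that express a gene and a change in its RNA per cell cannot be told apart, and the share of cells transfected was not measured in these files.

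The N2V8_S13 libraries held 10391745 to 13458245 estimated counts and the UT libraries 10130491 to 12973998, within the range of 9546826 to 15099153 of all 54. Ribosomal RNA genes took 3.98 to 4.96% of counts in N2V8_S13 and 2.78 to 3.76% in UT. That share covered 0.899 to 4.96% over all libraries, so that N2V8_S13 held the highest. The line's markers PAX2 and LHX1 were present in both groups (PAX2 at 5.40 to 5.78 CPM in N2V8_S13 and 4.48 to 6.05 CPM in UT), and so were 2 of the markers of the study's other line SH-SY5Y: HAND2 was at 4.43 to 4.88 CPM in N2V8_S13 and 4.24 to 5.21 CPM in UT, and ISL1 at 16.3 to 18.4 CPM in N2V8_S13 and 12.9 to 14.9 CPM in UT. PHOX2A, TH and DBH, which mark noradrenergic cells such as SH-SY5Y, were at 0.0748 CPM or less in all 6 libraries. Of 38137 genes listed, 15378 were tested. Levels are given as CPM, counts relative to the library total after scaling for composition, in the order of replicates 1, 2 and 3, and differences as log2 fold change ± SE of N2V8_S13 over UT from 1 edgeR fit of all libraries. A gene was called at a Benjamini-Hochberg adjusted p under 0.05 and a difference of over 25% in either direction (0.32 on the log2 scale), called the fold threshold here.

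N2V8_S13 differed from UT in 3059 of 15378 genes, which is 19.9% of those tested. Of these, 1683 were higher in N2V8_S13 (10.9%) and 1376 were lower (8.95%). The median over all tested genes was 0.0035 on the log2 scale, so the scaling left the middle gene near 0. Most changes were modest: 523 called genes differed by over 2-fold, 420 of them higher and 103 lower in N2V8_S13. The 3 libraries of each group did not overlap for 2915 of the called genes, against 43.5% of all tested genes. Most called genes stand apart in this way. For genes named further on because they were called, non-overlap therefore describes the values and is no further result. When each of the 6 libraries was left out in turn, 1014 of the 1683 higher and 779 of the 1376 lower genes were called each time. The plot of all tested genes shows changes in both directions at all levels of expression.

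**Figure D1:**
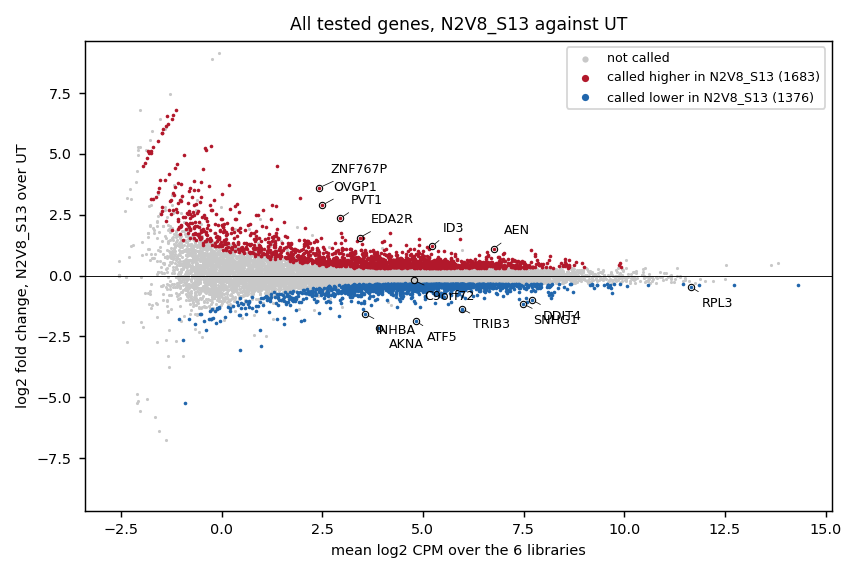
Log2 fold change of N2V8_S13 over UT against mean log2 CPM over the 6 libraries, 1 point per tested gene. Red points are the 1683 genes called higher in N2V8_S13, blue points the 1376 called lower, and circles mark genes named in the text; C9orf72 lies among the grey points that were not called.

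The gene that crRNA-13 addresses, C9orf72 (GRCh38, chromosome 9, 27546546 to 27573866), had 24.6, 25.3 and 26.3 CPM in N2V8_S13 and 27.5, 30.02 and 29.4 CPM in UT. Every N2V8_S13 library lay below every UT library, but the difference of -0.19 ± 0.09 did not pass the test (adjusted p = 0.141, 95% interval -0.38 to -0.003). It was not called in any of the alternative settings or with any single library left out. The table sums all transcript variants of the gene, so a change in a minor variant that carries the repeat would not show here. C9orf72 averaged 25.4 ± 0.827 CPM in N2V8_S13, 26.4 ± 1.28 CPM in N2V8_NTG, 26.4 ± 0.445 CPM in WT_S13 and 28.97 ± 1.31 CPM in UT (SD, n = 3 each). The difference between N2V8_S13 and N2V8_NTG was -0.06 ± 0.10 (adjusted p = 0.723, 95% interval -0.25 to 0.13), and that between N2V8_S13 and WT_S13 was -0.06 ± 0.09 (adjusted p = 0.737). Its partners were not called either: SMCR8 differed by -0.25 ± 0.08 (adjusted p = 0.00999, under the fold threshold) and WDR41 by -0.07 ± 0.05 (adjusted p = 0.381). Of 40 tested genes of the C9ORF72 complex and autophagy, 2 were higher (5%) and 4 lower (10%) in N2V8_S13, with a median of -0.04. Over all tested genes these shares were 10.9% and 8.95%. The autophagy kinase ULK1 (20.03, 23.3 and 22.1 CPM in N2V8_S13 and 31.1, 31.3 and 30.3 CPM in UT, log2 fold change -0.504 ± 0.12, adjusted p = 0.00098) and the autophagosome protein WIPI1 (-0.42, adjusted p = 0.00192) were among the lower ones. Without UT replicate 2 that list had 1 higher and 3 lower.

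The largest rises were taken among called genes at a mean log2 CPM of 2 or more whose groups did not overlap. They held several genes that are long noncoding RNAs, pseudogenes or members of families. OVGP1 (chromosome 1, 111414319 to 111427735), an oviduct glycoprotein of the chitinase family, had 14.5, 17.6 and 13.2 CPM in N2V8_S13 and 2.56, 2.15 and 1.31 CPM in UT (log2 fold change 2.89 ± 0.19, adjusted p = 4.97e-18). The pseudogene ZNF767P had 20.03, 20.6 and 15.5 CPM in N2V8_S13 and 1.005, 2.30 and 1.11 CPM in UT (log2 fold change 3.62 ± 0.21, adjusted p = 1.75e-20). The long noncoding RNA PVT1, the neighbour of MYC, had 18.7, 17.3 and 14.8 CPM in N2V8_S13 and 4.02, 2.30 and 3.83 CPM in UT (log2 fold change 2.35 ± 0.17, adjusted p = 1.64e-16). Non-overlap of the groups was part of the rule for these genes, so it is no further result. GUSBP11 (1.97), CCT6P3 (1.53), CBWD5 (1.52) and the readthrough transcripts CFAP298-TCP10L (1.47) and PDXDC2P-NPIPB14P (1.46) share sequence with other genes, so that their estimated counts are uncertain. Of single genes, INPP5D, a lipid phosphatase of blood cells, rose by 1.75 ± 0.17 (13.1, 15.6 and 13.3 CPM in N2V8_S13 and 3.56, 4.83 and 4.04 CPM in UT). The p53 target EDA2R rose by 1.56 ± 0.13, the zinc-knuckle gene ZCCHC12 by 1.52 ± 0.12, and MCOLN3, a lysosomal cation channel, by 1.47 ± 0.17. GATD1 (1.76), UAP1L1 (1.56) and the snoRNA host SNHG12 (1.58) complete the 15 largest.

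The 15 largest falls, taken by the same rule, were as follows. ATF5 (chromosome 19, 49928906 to 49933935), a transcription factor induced in the integrated stress response, had 11.1, 13.2 and 20.99 CPM in N2V8_S13 and 49.4, 59.3 and 55.7 CPM in UT (log2 fold change -1.88 ± 0.22, adjusted p = 1.9e-08). AKNA (chromosome 9, 114330504 to 114398472), a centrosome and microtubule organiser, had 6.53, 5.23 and 9.72 CPM in N2V8_S13 and 26.8, 37.2 and 30.4 CPM in UT (log2 fold change -2.17 ± 0.21, adjusted p = 1.31e-10). INHBA, the activin A subunit, had 5.49, 6.21 and 8.86 CPM in N2V8_S13 and 20.2, 19.3 and 21.5 CPM in UT (log2 fold change -1.58 ± 0.16, adjusted p = 9.06e-12). Non-overlap of the groups was again part of the rule. LAMB2, a laminin chain of the basement membrane, fell by 1.40 on the log2 scale (34.5, 39.1 and 41.9 CPM in N2V8_S13 and 90.3, 108 and 107 CPM in UT). The lower genes also held the keratin KRT17 (-1.81), the fucosyltransferase FUT1 (-1.66), complement C5 (-1.53) and the small heat shock protein CRYAB (-1.36, adjusted p = 0.00154). TRIB3 (-1.35) and INHBE (-1.29) are stress response genes described further on. The protocadherin DCHS1 (-1.28), the vault protein MVP (-1.19), SH2D3C (-1.35), SIPA1L2 (-1.15) and the snoRNA host SNHG1 (-1.15) complete the 15 largest. All 30 of these rises and falls were called each time 1 of the 6 libraries was left out. The plot of 12 genes by library shows genes of both directions beside the other groups given the same protein or the same guide.

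**Figure D2:**
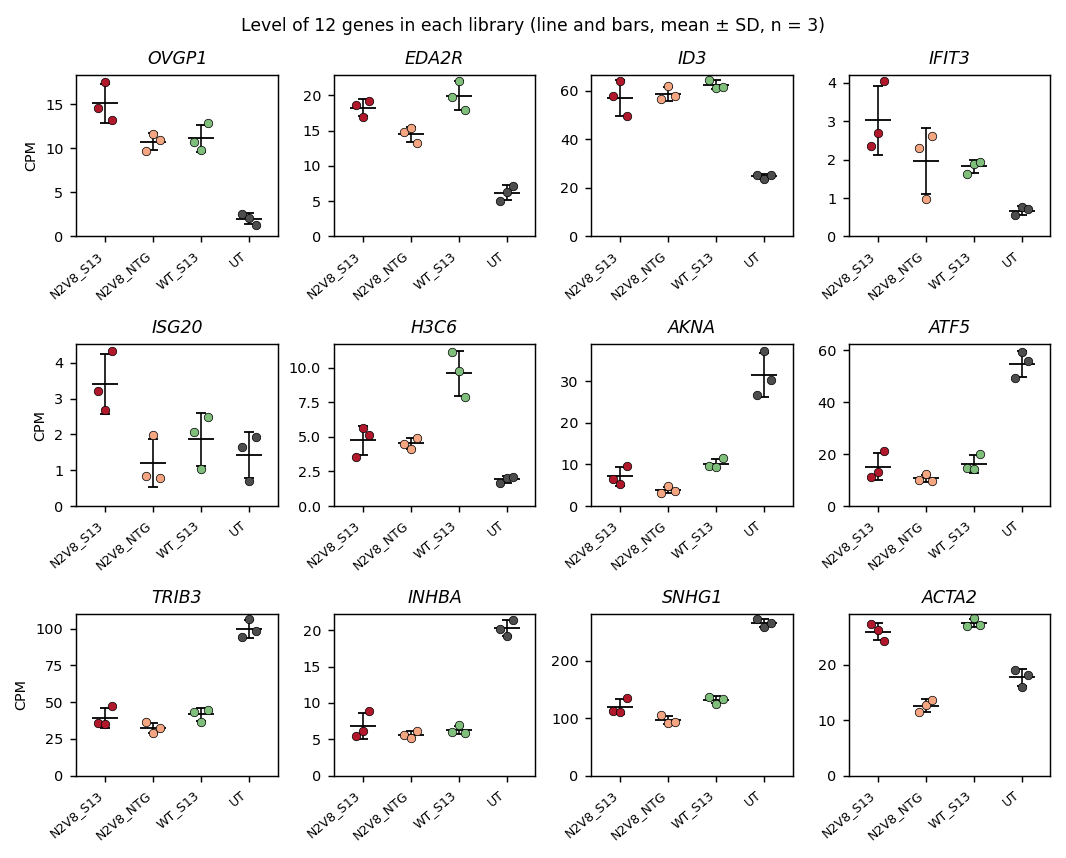
Level in CPM of 12 genes named in the text, 1 panel a gene, in each library of N2V8_S13, N2V8_NTG, WT_S13 and UT; points are libraries, and lines and bars are the mean and SD of 3 libraries. In all 12 panels the N2V8_S13 libraries lie apart from those of UT, above them in OVGP1, EDA2R, ID3, IFIT3, ISG20, H3C6 and ACTA2 and below them in AKNA, ATF5, TRIB3, INHBA and SNHG1.

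Targets of p53 arrest the cycle, repair DNA or prime apoptosis. Of 37 tested members 17 rose in N2V8_S13 (45.9%, beside 10.9% of all tested genes), 2 fell and 18 were not called, with a median of 0.32 against 0.0035 over all genes. AEN, a nuclease of p53-dependent apoptosis, had 161, 166 and 148 CPM in N2V8_S13 and 74.8, 70.6 and 75.3 CPM in UT (log2 fold change 1.11 ± 0.06, adjusted p = 1.74e-22), and EDA2R, a receptor of the TNF family, had 18.6, 16.9 and 19.2 CPM in N2V8_S13 and 5.03, 6.36 and 7.17 CPM in UT (log2 fold change 1.56 ± 0.13, adjusted p = 6.22e-15). BAX, which permeabilises mitochondria, had 47.4, 47.3 and 44.2 CPM in N2V8_S13 and 23.9, 28.7 and 28.4 CPM in UT (log2 fold change 0.78 ± 0.07, adjusted p = 1.54e-12). The libraries of the groups did not overlap for any of these genes. Further rises were in PLK2 (0.88 ± 0.11), TP53I3 (0.83 ± 0.21), RPS27L (0.67 ± 0.13), FDXR (0.67 ± 0.13), the death receptor FAS (0.60 ± 0.14), TIGAR (0.60 ± 0.07) and the phosphatase PPM1D (0.56 ± 0.06). The noncoding p53 target PURPL, which was not on the list, had 14.98, 15.7 and 18.6 CPM in N2V8_S13 and 6.12, 6.59 and 5.75 CPM in UT (log2 fold change 1.40 ± 0.13, adjusted p = 4.3e-13). The standard readouts CDKN1A and MDM2 were not called: CDKN1A had 113, 110.5 and 119 CPM in N2V8_S13 and 138, 133 and 146 CPM in UT (log2 fold change -0.28 ± 0.07, adjusted p = 0.000962), which is lower and under the fold threshold, and MDM2 had 206, 195 and 206 CPM in N2V8_S13 and 190.3, 194 and 203 CPM in UT (log2 fold change 0.05 ± 0.05, adjusted p = 0.593). The 2 that fell were SESN2 (-0.59 ± 0.08), also an ATF4 target, and PLXNB2 (-0.501 ± 0.08). Of the 17 rises 14 were called with each library left out; the list also holds GDF15, which was not called without N2V8_S13 replicate 2 (log2 fold change 0.74, adjusted p = 0.0726) or UT replicate 1 (log2 fold change 0.74, adjusted p = 0.0636).

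Interferon-stimulated genes were higher or not called: 14 of 43 tested rose (32.6%, beside 10.9% of all tested genes) and none fell, with a median of 0.40. Falls numbered 3 at an unadjusted edgeR p under 0.05 and 0 by DESeq2 or limma-trend calls. IFIT1, an antiviral protein that binds the ends of foreign RNA, had 12.4, 12.4 and 12.1 CPM in N2V8_S13 and 6.12, 5.59 and 5.45 CPM in UT (log2 fold change 1.10 ± 0.14, adjusted p = 5.62e-09). IFIT3, its partner, had 2.35, 2.69 and 4.04 CPM in N2V8_S13 and 0.548, 0.766 and 0.707 CPM in UT (log2 fold change 2.14 ± 0.34, adjusted p = 1.5e-06), and SAMD9 had 1.83, 1.35 and 1.83 CPM in N2V8_S13 and 0.548, 0.383 and 0.505 CPM in UT (log2 fold change 1.78 ± 0.39, adjusted p = 3e-04). The groups did not overlap for any of the 3. The membrane proteins IFITM1 (0.65 ± 0.10), IFITM2 (1.07 ± 0.14) and IFITM3 (1.13 ± 0.29) share sequence, so reads may be split among them. At higher levels, B2M, the light chain of MHC class I, had 259.8, 249 and 242 CPM in N2V8_S13 and 177, 164 and 168 CPM in UT (log2 fold change 0.56 ± 0.05, adjusted p = 1.48e-13), and TRIM25 had 44.1, 40.5 and 43.1 CPM in N2V8_S13 and 29.2, 28.9 and 27.2 CPM in UT (log2 fold change 0.58 ± 0.08, adjusted p = 7.15e-08). IFI6 rose by 0.92 ± 0.21. Several classical members did not pass: MX1 (-1.01, adjusted p = 0.141), ISG15 (-0.01, adjusted p = 0.995), IRF9 (0.11, adjusted p = 0.778) and STAT2 (-0.27, adjusted p = 0.0167, under the fold threshold). Of the 14, 10 were called with every single library left out. ISG20 (1.29) was not called without N2V8_S13 replicate 3 (log2 fold change 1.09, adjusted p = 0.111) or UT replicate 2 (log2 fold change 0.93, adjusted p = 0.185), and PARP9 (0.45) was not called without N2V8_S13 replicate 3 (log2 fold change 0.31, adjusted p = 0.154).

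The promoter windows of these genes were read because several members rose together. The windows searched were the 250 bases before each start of a gene in the RefSeq annotation of GRCh38.p14. Some genes have several starts, and a gene was counted if any of its windows matched. Shares of genes are therefore not on the same footing as shares of single windows. The core of the interferon-stimulated response element was searched as 2 copies of GAAA with 2 bases of any kind between them, on both strands. It was found in 21 of 36 interferon-stimulated genes with a window (58.3%), against 392 of 12103 tested genes (3.24%) and 1061 of 35116 windows of that length (3.02%). Among the members called it stood in 9 of 11 (81.8%), and among those not called in 12 of 25 (48%). A match describes the letters in the window and is not a measured site. The following 30-base windows show the match in capitals, on the strand of the gene; for IFIT1 and IFIT3 the motif reads on the opposite strand.
IFIT1 (chr10:89392497-89392526, plus strand): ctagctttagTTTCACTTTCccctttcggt
IFIT3 (chr10:89332468-89332497, plus strand): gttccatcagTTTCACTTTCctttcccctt
SAMD9 (chr7:93118096-93118125, minus strand): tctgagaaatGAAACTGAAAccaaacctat
IFI6 (chr1:27672329-27672358, minus strand): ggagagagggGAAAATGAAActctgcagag
B2M (chr15:44711363-44711392, plus strand): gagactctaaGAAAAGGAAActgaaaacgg
The 5 genes shown differed in N2V8_S13 by 0.56 (B2M) to 2.14 (IFIT3) on the log2 scale.

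Of 19 tested genes that sense nucleic acids in the cytosol, 3 were higher (15.8%) and 4 lower (21.1%) in N2V8_S13, with a median of 0.05. Over all tested genes these shares were 10.9% and 8.95%. TLR3, the receptor for double-stranded RNA, had 1.92, 1.72 and 1.35 CPM in N2V8_S13 and 0.548, 0.306 and 0.707 CPM in UT (log2 fold change 1.70 ± 0.42, adjusted p = 0.00124). The helicase DHX9, which unwinds RNA duplexes, had 311, 311 and 251 CPM in N2V8_S13 and 159, 169.6 and 168 CPM in UT (log2 fold change 0.82 ± 0.07, adjusted p = 1.12e-13), and RNASEH2C, a subunit of the enzyme that removes RNA from DNA, rose by 0.78 ± 0.10. The groups stood apart for each of these 3. The sensor IFIH1 was at 0.40 ± 0.21 (adjusted p = 0.174, not called). Without N2V8_S13 replicate 2 the list had 3 higher and 2 lower. Of 24 NF-kB and inflammatory targets 2 were higher and 6 lower (25%, beside 8.95% of all tested genes), and 16 were not called, with a median of -0.21. Among the lower ones the pentraxin PTX3 had 9.06, 10.4 and 9.63 CPM in N2V8_S13 and 19.1, 16.5 and 23.7 CPM in UT (log2 fold change -1.02 ± 0.14, adjusted p = 1.06e-07), the receptor TNFRSF12A fell by 0.79 and TNFRSF9 by 1.74 on the log2 scale (adjusted p = 1.93e-06 and 4.93e-06).

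Of 62 tested genes of the integrated stress response 22 fell in N2V8_S13 (35.5%, beside 8.95% of all tested genes), 2 rose and 38 were not called, and the median was -0.25. TRIB3, a pseudokinase that feeds back on ATF4, had 35.5, 35.3 and 47.2 CPM in N2V8_S13 and 93.9, 106 and 98.6 CPM in UT (log2 fold change -1.35 ± 0.14, adjusted p = 2.98e-09). DDIT4, an inhibitor of mTORC1, had 137, 142 and 166 CPM in N2V8_S13 and 294, 286 and 308 CPM in UT (log2 fold change -0.999 ± 0.07, adjusted p = 3.2e-15), and INHBE, an inhibin subunit, had 17.3, 16.4 and 24.6 CPM in N2V8_S13 and 46.97, 47.3 and 47.1 CPM in UT (log2 fold change -1.29 ± 0.13, adjusted p = 1.81e-10). For all 3 every N2V8_S13 library was below every UT library. The transcription factors ATF3 (-0.68 ± 0.09), CEBPB (-0.62 ± 0.12) and CEBPG (-0.61 ± 0.08) fell, as did the phosphatase subunit PPP1R15A (-0.65 ± 0.09), the hormone STC2 (-0.62 ± 0.08) and the cystine transporter SLC7A11 (-0.75 ± 0.18). The enzymes PCK2 (-0.52 ± 0.12) and ALDH1L2 (-0.48 ± 0.09), the glutathione-degrading CHAC1 (-0.42 ± 0.12) and the transporter SLC1A4 (-0.53 ± 0.12) fell less. ATF4 itself was at -0.18 ± 0.05 (adjusted p = 0.00708), under the fold threshold, and its target ASNS at -0.17 ± 0.12 (adjusted p = 0.341). The 2 that rose were GDF15 (0.86 ± 0.27), not called without N2V8_S13 replicate 2 (log2 fold change 0.74, adjusted p = 0.0726) or UT replicate 1 (log2 fold change 0.74, adjusted p = 0.0636), and SLC3A2 (0.35 ± 0.05), a heavy chain of amino acid transporters. DDIT3 (-0.495 ± 0.17) was not called without N2V8_S13 replicate 1 (log2 fold change -0.43, adjusted p = 0.108), N2V8_S13 replicate 2 (log2 fold change -0.49, adjusted p = 0.0661) or UT replicate 1 (log2 fold change -0.43, adjusted p = 0.108). With every library left out in turn, 20 of the 22 falls were called each time.

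The core of the CEBP-ATF response element was searched in the same promoter windows as TGATGNAA on both strands. It was found in 10 of 47 tested members with a window (21.3%), in 4 of the 18 called (22.2%), in 6 of the 29 not called (20.7%), in 291 of 12103 tested genes (2.4%) and in 1104 of 35116 windows (3.14%). The windows of 3 called members show it in capitals, on the strand of the gene, with the motif on the opposite strand for CHAC1.
CEBPG (chr19:33374060-33374089, plus strand): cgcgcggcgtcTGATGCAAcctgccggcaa
ATF3 (chr1:212565205-212565234, plus strand): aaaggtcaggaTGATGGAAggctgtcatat
CHAC1 (chr15:40953251-40953280, plus strand): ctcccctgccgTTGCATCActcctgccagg
These 3 genes differed in N2V8_S13 by -0.61 (CEBPG), -0.68 (ATF3) and -0.42 (CHAC1) on the log2 scale.

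Of 27 tested genes of BMP and TGF-beta signalling 5 were higher (18.5%) and 4 lower (14.8%), with a median of -0.07. The same shares over all tested genes were 10.9% and 8.95%. ID3 and ID1, inhibitors of helix-loop-helix factors that BMP signals induce, rose: ID3 had 57.8, 64.2 and 49.5 CPM in N2V8_S13 and 25.1, 23.6 and 25.4 CPM in UT (log2 fold change 1.22 ± 0.09, adjusted p = 3.33e-17), and ID1 had 9.06, 9.80 and 9.44 CPM in N2V8_S13 and 4.57, 5.67 and 4.54 CPM in UT (log2 fold change 0.92 ± 0.16, adjusted p = 7.16e-06). ID2 rose by 0.47 ± 0.07. The lowest N2V8_S13 library lay above the highest UT library for both ID3 and ID1. The activin subunits INHBA and INHBE fell as given above, and so did the matrix protein LTBP2 (-0.79 ± 0.17), which binds latent TGF-beta complexes, and the feedback inhibitor PMEPA1 (-0.61 ± 0.12). The ligands and the ID genes were not compared with each other by a test. INHBB, which was not on the list, was lower as well (4.53, 3.59 and 5.20 CPM in N2V8_S13 and 7.31, 7.35 and 8.18 CPM in UT; log2 fold change -0.79 ± 0.15, adjusted p = 5.55e-05).

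Of 32 cytoskeletal targets of SRF and YAP 7 were lower (21.9%, beside 8.95% of all tested genes), 3 higher and 22 not called, with a median of -0.12. The filamins, which crosslink actin, fell: FLNC had 128, 131 and 142 CPM in N2V8_S13 and 252, 306 and 282 CPM in UT (log2 fold change -1.07 ± 0.09, adjusted p = 5.49e-12) and FLNA had 652, 633 and 634 CPM in N2V8_S13 and 1013, 1114 and 1062 CPM in UT (log2 fold change -0.73 ± 0.06, adjusted p = 5.83e-14). CNN1, a calponin of smooth muscle, fell by 1.501, the receptor kinase AXL by 0.91 and the matricellular CCN1 by 0.87 on the log2 scale (adjusted p = 0.000294, 0.00433 and 4.56e-08). In these genes the libraries of the groups were apart. ACTA2, smooth muscle actin, went the other way with 27.3, 26.2 and 24.4 CPM in N2V8_S13 and 19.01, 16.01 and 18.2 CPM in UT (log2 fold change 0.56 ± 0.11, adjusted p = 8.17e-05). Of 48 immediate early genes, which growth factors and stress induce within minutes, 10 were lower and 2 higher (median -0.07); FOSL2 fell by 0.75 on the log2 scale, while FOS (-0.25 ± 0.15, adjusted p = 0.275) and EGR1 (-0.26 ± 0.16, adjusted p = 0.244) were not called. Without N2V8_S13 replicate 3, SRF and YAP targets had 5 higher and 8 lower.

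Nuclear genes of oxidative phosphorylation were higher in N2V8_S13 in 37 of 79 tested members (46.8%, beside 10.9% of all tested genes) and lower in none, with a median of 0.29. Falls numbered 4 at an unadjusted edgeR p under 0.05 and 0 by DESeq2 or limma-trend calls. ATP5MC1, a subunit of the ATP synthase ring, had 50.9, 58.2 and 40.6 CPM in N2V8_S13 and 30.2, 23.9 and 28.1 CPM in UT (log2 fold change 0.88 ± 0.10, adjusted p = 1.24e-09), and ATP5MF had 122, 119.9 and 99.2 CPM in N2V8_S13 and 66.3, 55.7 and 65.8 CPM in UT (log2 fold change 0.87 ± 0.06, adjusted p = 8.48e-17). NDUFB2 (0.84 ± 0.11) and NDUFB6 (0.70 ± 0.09) of complex I and COX7B (0.61 ± 0.10) of complex IV also rose. No library of N2V8_S13 reached down to the UT range for any of these 5. Mitochondrial ribosomal proteins were higher in 21 and lower in 1 of 78 (median 0.20), led by MRPL23 (36.3, 37.3 and 31.9 CPM in N2V8_S13 and 18.5, 14.4 and 19.9 CPM in UT; log2 fold change 1.02 ± 0.12, adjusted p = 1.01e-09), MRPL1 (0.82 ± 0.12) and MRPL32 (0.73 ± 0.10). Proteasome subunits were higher in 9 and lower in 0 of 40 (median 0.18; lower in 2 at an unadjusted edgeR p under 0.05), among them the inducible subunit PSMB10 (0.83 ± 0.23) and the constitutive PSMB3 (0.54 ± 0.09). With each library left out in turn, 26, 13 and 5 of these 37, 21 and 9 rises were called every time. Without UT replicate 1, mitochondrial ribosomal proteins had 28 higher and 0 lower. Cytosolic ribosomal proteins were nearly level at 3 higher and 3 lower of 81 (median -0.09); RPL3, of the large subunit, fell (2584, 2697 and 2981 CPM in N2V8_S13 and 3936, 3617 and 3969 CPM in UT; log2 fold change -0.48 ± 0.04, adjusted p = 2.33e-13), and RPS27L, a p53 target, rose. The cytosolic list had 3 higher and 1 lower without N2V8_S13 replicate 1, and 1 higher and 4 lower without UT replicate 2.

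Many of the genes that rose have short transcripts, and the values by length are given here beside these lists. The canonical transcript in the GENCODE annotation had a median length of 2237 bases for genes called higher and 4874 bases for genes called lower. It was 3277 bases for all tested genes with a length. Genes with a length were put in 4 classes of equal size. In the shortest class 18.4% were called higher and 4.54% lower, and in the longest class 4.59% were called higher and 17% lower. The median log2 fold change was 0.15, 0.04, -0.04 and -0.12 from the shortest to the longest class. Against the UT mean, the median of the shortest class was 0.12, 0.16 and 0.11 in the N2V8_S13 libraries and 0.05, -0.06 and 0.01 in the UT libraries. The groups did not overlap in either end class, but UT libraries differed from each other by 0.12 in the shortest. The same medians were 0.16, 0.06, -0.03 and -0.16 for N2V8_NTG against UT and 0.11, 0.02, -0.03 and -0.08 for WT_S13 against UT, which share the UT libraries. GC content did not separate the sets, with medians of 49.8% for genes called higher and 50.6% for genes called lower. The part of transcript length in the changes of any list was not tested. By kind of gene, 13.5% of 1329 long noncoding RNAs and 18.6% of 361 pseudogenes were called higher, against 10.5% of 13525 protein-coding genes, and 4.14, 3.88 and 9.6% were called lower. Among long noncoding RNAs, NEAT1, the scaffold of paraspeckles, had 129, 126 and 142 CPM in N2V8_S13 and 64.4, 71.2 and 83.7 CPM in UT (log2 fold change 0.86 ± 0.12, adjusted p = 7.58e-07), and MALAT1 was at 0.15 ± 0.19 (adjusted p = 0.645).

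**Figure D3:**
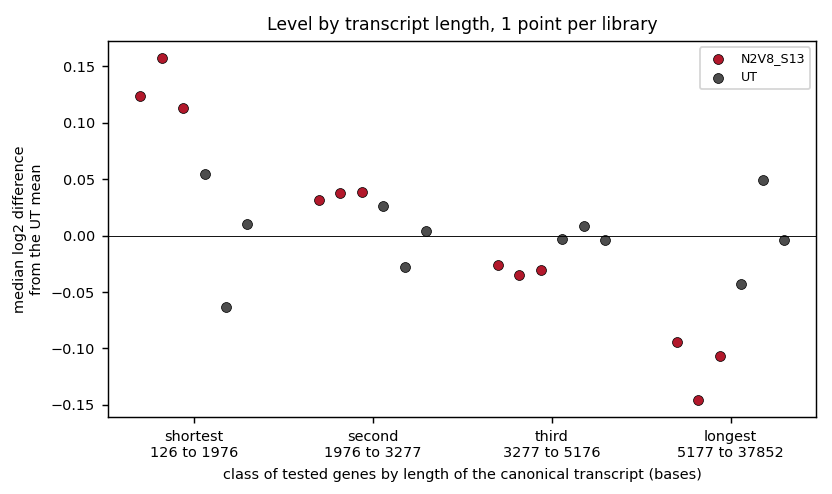
Median log2 difference from the UT mean in each library of N2V8_S13 (red) and UT (grey), over 4 equal classes of tested genes by length of the canonical transcript. In the shortest class the N2V8_S13 libraries lie at 0.11 to 0.16 and in the longest at -0.15 to -0.09.

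Of 48 mitotic genes 14 rose (29.2%, beside 10.9% of all tested genes), none fell and 34 were not called, with a median of 0.21 and falls in 5 at an unadjusted edgeR p under 0.05. The mitotic cyclin CCNB1 had 160.4, 173 and 146 CPM in N2V8_S13 and 108, 97.7 and 101 CPM in UT (log2 fold change 0.65 ± 0.05, adjusted p = 1.57e-15), and the kinase AURKA had 121, 124 and 116 CPM in N2V8_S13 and 83.2, 70.4 and 72.8 CPM in UT (log2 fold change 0.68 ± 0.06, adjusted p = 1.05e-12). PTTG1, the securin, had 137, 144 and 118 CPM in N2V8_S13 and 87.7, 77.9 and 78.5 CPM in UT (log2 fold change 0.71 ± 0.07, adjusted p = 3.53e-12), and PLK1 (0.56 ± 0.06), CDC20 (0.56 ± 0.05) and the centromeric histone CENPA (0.66 ± 0.12) rose with them. Groups were separate for these genes. Of 52 DNA replication genes 7 were lower (13.5%, beside 8.95% of all tested genes), 2 higher and 43 not called, with a median of -0.12. CDT1, which licenses origins, had 168, 190.4 and 209.6 CPM in N2V8_S13 and 289, 252 and 278 CPM in UT (log2 fold change -0.53 ± 0.05, adjusted p = 7.87e-12), and the primase subunit PRIM1 (-0.56 ± 0.06) and the factor E2F2 (-0.51 ± 0.08) fell. In each list, 10 of the 14 rises in mitotic genes and 6 of the 7 falls in replication genes were called with every library left out in turn.

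The RNAs of replication-dependent histones normally end in a stem loop and carry no poly(A) tail. These genes were higher in 12 of 32 tested (37.5%, beside 10.9% of all tested genes) and lower in none. Their median was 0.82, with falls in 0 at an unadjusted edgeR p under 0.05. The libraries were poly(A)-selected, so these counts come from the polyadenylated or carried-over part of histone RNA. H4C15 had 47.7, 47.9 and 39.9 CPM in N2V8_S13 and 20.2, 27.04 and 20.3 CPM in UT (log2 fold change 0.996 ± 0.17, adjusted p = 2.76e-05), H3C6 had 3.57, 5.61 and 5.10 CPM in N2V8_S13 and 1.65, 1.99 and 2.12 CPM in UT (log2 fold change 1.31 ± 0.25, adjusted p = 3.56e-05), and H2BC12 had 62.7, 65.2 and 67.5 CPM in N2V8_S13 and 43.9, 40.8 and 45.9 CPM in UT (log2 fold change 0.58 ± 0.08, adjusted p = 2.26e-08). In each of the 3, all N2V8_S13 libraries exceeded all UT libraries. H2BC5 (0.98 ± 0.19), H2BC15 (0.997 ± 0.23) and H2BC21 (0.77 ± 0.15) rose too, and near-identical copies make counts within the family uncertain. Without UT replicate 2 the list had 7 higher and 0 lower, and without the factor of unwanted variation also 7. H3C4 had 4, 2 and 2 counts in N2V8_S13 and 0, 0 and 0 in UT, 2.57-fold higher over the groups against a floor of 3 counts in UT. It stayed called without N2V8_S13 replicate 2 (adjusted p = 0.0434). With any other of the 6 libraries left out it was not called (adjusted p = 0.053 to 0.118 by edgeR). Nor was it called by limma-trend or without the factor of unwanted variation. Ribosomal RNA, which also has no poly(A) tail, took 3.98 to 4.96% of counts in N2V8_S13 and 2.78 to 3.76% in UT. Of 18 structural RNAs 2 were called higher, a share of 11.1% that lies near the 10.9% of all tested genes (median 0.45). One was the precursor RNA45SN4 (191, 179.8 and 157 CPM in N2V8_S13 and 102, 77.97 and 103 CPM in UT; log2 fold change 0.91 ± 0.21, adjusted p = 0.00119), while RNA18SN4 (0.52 ± 0.32, adjusted p = 0.273) and RNA28SN4 (0.45 ± 0.23, adjusted p = 0.158) were not called. Only RNA45SN4 kept its call with each library left out, and RNA45SN1 was not called without N2V8_S13 replicate 1 (log2 fold change 0.59, adjusted p = 0.0556), N2V8_S13 replicate 3 (log2 fold change 0.52, adjusted p = 0.0991), UT replicate 1 (log2 fold change 0.58, adjusted p = 0.0682), UT replicate 2 (log2 fold change 0.53, adjusted p = 0.107) or UT replicate 3 (log2 fold change 0.62, adjusted p = 0.0513). The part of rRNA carry-over in the histone values was not tested.

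Splicing factors were higher in 16 (29.6%, beside 10.9% of all tested genes) and lower in 1 of 54 (median 0.17). LUC7L, a partner of the U1 particle, had 12.3, 14.2 and 10.2 CPM in N2V8_S13 and 4.20, 5.29 and 4.84 CPM in UT (log2 fold change 1.36 ± 0.16, adjusted p = 1.55e-09), TRA2A, an SR-like regulator, had 69.7, 66.4 and 60.8 CPM in N2V8_S13 and 30.7, 31.1 and 35.2 CPM in UT (log2 fold change 1.03 ± 0.07, adjusted p = 1.51e-18), and SRSF1, an SR protein, had 323, 299.8 and 285 CPM in N2V8_S13 and 157, 172 and 156 CPM in UT (log2 fold change 0.90 ± 0.06, adjusted p = 4.73e-17). LUC7L3 (0.97 ± 0.10), SRSF2 (0.68 ± 0.07) and SNRNP70 (0.66 ± 0.09) rose as well. The large SR-related protein SRRM2 was the 1 that fell (719.8, 667 and 678 CPM in N2V8_S13 and 898, 1001 and 999 CPM in UT; log2 fold change -0.49 ± 0.09, adjusted p = 8.66e-05). Groups did not overlap for these 7 genes. The lower count was 2 without N2V8_S13 replicate 1, UT replicate 1 or UT replicate 3, and 13 of the 16 rises were called with each library left out.

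Host genes of small nucleolar RNAs moved in both directions, 8 higher (27.6%) and 10 lower (34.5%) of 29 (median 0.05). Over all tested genes these shares were 10.9% and 8.95%. SNHG1 had 113, 111 and 135 CPM in N2V8_S13 and 273, 259 and 266 CPM in UT (log2 fold change -1.15 ± 0.08, adjusted p = 8.35e-15), SNHG32 had 113, 114 and 131 CPM in N2V8_S13 and 235, 230.5 and 234 CPM in UT (log2 fold change -0.96 ± 0.08, adjusted p = 1.73e-13), and GAS5 had 212, 209 and 234 CPM in N2V8_S13 and 354, 338 and 361 CPM in UT (log2 fold change -0.69 ± 0.06, adjusted p = 8.84e-13), all lower in N2V8_S13. SNHG12 had 14.3, 13.6 and 12.3 CPM in N2V8_S13 and 4.29, 4.21 and 5.05 CPM in UT (log2 fold change 1.58 ± 0.16, adjusted p = 6.33e-12), DANCR had 35.7, 35.4 and 35.7 CPM in N2V8_S13 and 21.6, 17.2 and 18.7 CPM in UT (log2 fold change 0.90 ± 0.10, adjusted p = 4.69e-11) and SNHG30 rose by 1.07 ± 0.14. Ribosome biogenesis genes were higher in 12 (17.9%) and lower in 0 of 67 (median 0.03). At an unadjusted edgeR p under 0.05, 8 were lower. NHP2, of the pseudouridylation particle, had 159, 167 and 137 CPM in N2V8_S13 and 101, 82.9 and 91.8 CPM in UT (log2 fold change 0.76 ± 0.07, adjusted p = 2.36e-11). NOP58 (0.58 ± 0.08) and UTP14A (0.69 ± 0.08) rose too. Genes of tRNA processing were higher in 17 (21.8%) and lower in 0 of 78 (median 0.11). At an unadjusted edgeR p under 0.05, 6 were lower. The rises were led by ADAT3 (3.13, 4.71 and 3.56 CPM in N2V8_S13 and 1.55, 1.30 and 1.41 CPM in UT, log2 fold change 1.42 ± 0.25, adjusted p = 8.8e-06) and TRMT61A (7.40, 6.21 and 7.41 CPM in N2V8_S13 and 2.19, 3.14 and 2.73 CPM in UT, log2 fold change 1.36 ± 0.21, adjusted p = 4.06e-07), which modify tRNA bases, and by POP5 of RNase P (0.72 ± 0.12). With each library left out, 9 of the 12 and 9 of the 17 rises were called every time.

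Zinc-finger genes, a family of mostly repressive transcription factors with long transcripts and low levels, were lower in 89 and higher in 22 of 451, with a median of -0.17. That is 19.7% lower and 4.88% higher, beside 8.95% and 10.9% of all tested genes. ZNF530 was among the members that rose (10.4, 10.9 and 13.1 CPM in N2V8_S13 and 4.20, 4.90 and 6.96 CPM in UT; log2 fold change 1.10 ± 0.23, adjusted p = 0.000196). The counts were 68 lower and 14 higher without UT replicate 2, and 48 of the 89 falls and 9 of the 22 rises were called with each library left out in turn. Reads shared among family members make single zinc-finger genes uncertain.

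The other lists held smaller sets of calls. Here and in the next paragraph they stand beside 10.9% higher and 8.95% lower over all tested genes. Several lay near those shares, such as the unfolded protein response (10.3% higher, 7.69% lower) and intrinsic apoptosis (9.38% higher, 12.5% lower). Among genes of the endoplasmic reticulum's unfolded protein response 4 of 39 were higher and 3 lower (median -0.12); the sensor ERN1 fell (17.5, 16.97 and 25.03 CPM in N2V8_S13 and 27.8, 36.4 and 34.6 CPM in UT; log2 fold change -0.74 ± 0.12, adjusted p = 1.66e-06), SEL1L fell by 0.52 on the log2 scale and the chaperone HSPA5 was at -0.16 ± 0.07 (not called). That list had 3 higher and 5 lower without UT replicate 2. In heat shock genes 1 was higher and 4 lower of 30 (median 0.09); HSPE1, a mitochondrial chaperonin, rose (136, 142 and 108 CPM in N2V8_S13 and 77.5, 66.3 and 79.03 CPM in UT; log2 fold change 0.80 ± 0.11, adjusted p = 3.39e-07), HSPB8 fell by 0.82 on the log2 scale and DNAJB1 was at -0.05 ± 0.06 (not called). It had 3 higher and 4 lower without N2V8_S13 replicate 3 or UT replicate 1. Targets of NRF2 had 8 higher and 1 lower of 30 (median 0.07), with PRDX1, a peroxidase of thioredoxin, at 485, 499.6 and 427 CPM in N2V8_S13 and 319, 275 and 286 CPM in UT (log2 fold change 0.68 ± 0.06, adjusted p = 3.76e-13) and GPX1 up by 0.46 ± 0.06. NQO1 (0.25 ± 0.18) and HMOX1 (0.18 ± 0.10), standard NRF2 readouts, were not called, and without UT replicate 2 the list had 4 higher and 1 lower. Glycolysis and hypoxia genes had 1 higher and 6 lower of 37 (median -0.01), with the collagen hydroxylase P4HA1 (185, 219 and 230.1 CPM in N2V8_S13 and 389, 337 and 390.2 CPM in UT; log2 fold change -0.82 ± 0.15, adjusted p = 5.3e-05) and VEGFA (-0.57 ± 0.08) lower. Leaving out 1 library gave 0 to 2 higher and 4 to 6 lower in that list, the 4 without UT replicate 1.

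Lysosomal genes had 6 higher and 4 lower of 40 (median 0.04), with the sialidase NEU1 (41.1, 44.04 and 37.8 CPM in N2V8_S13 and 30.1, 20.7 and 21.4 CPM in UT; log2 fold change 0.78 ± 0.10, adjusted p = 1.79e-08), CTSA (0.63 ± 0.11) and the galactosidase GLA (0.61 ± 0.06) higher. Genes of intrinsic apoptosis had 3 higher and 4 lower of 32 (median -0.02); beside the rise of BAX, the survival factor BCL2 fell (23.2, 12.1 and 16.7 CPM in N2V8_S13 and 23.5, 33.9 and 35.5 CPM in UT; log2 fold change -0.85 ± 0.16, adjusted p = 7.57e-05), and the BH3-only HRK fell by 0.87 on the log2 scale. Without UT replicate 1 it had 5 higher and 4 lower. Cholesterol synthesis had 3 higher and 4 lower of 25 (median 0.0039), with HSD17B7 up by 0.70 ± 0.13; leaving out N2V8_S13 replicate 2 gave 1 higher and 3 lower, and leaving out UT replicate 1 gave 3 higher and 2 lower. Fatty acid synthesis and lipid droplets had 4 higher and 1 lower of 22 (median 0.06), with ELOVL6 (0.45 ± 0.08) and DGAT2 (0.55 ± 0.14) higher and the 1 fall lost without N2V8_S13 replicate 1 or 2 or UT replicate 1 or 2. Vesicle transport and lipid response genes had 5 higher and 5 lower of 25 (median 0.06), with SPHK1 (1.10 ± 0.24) and ANXA1 (0.61 ± 0.11) higher and VLDLR (-0.60 ± 0.08) lower; it had 3 higher and 4 lower without UT replicate 2. Metallothioneins and metal response had 2 higher and 0 lower of 9 (median 0.22; lower in 0 at an unadjusted edgeR p under 0.05), with MT1X up by 0.89 ± 0.20. Among HEK293 markers 0 were higher and 2 lower of 18 (median 0.01), VIM (-0.44 ± 0.05) being called each time a library was left out. Neuroblastoma markers had 2 higher of 9 tested (median 0.23), with SNAP25, a synaptic protein, at 2.79, 3.29 and 2.98 CPM in N2V8_S13 and 0.731, 0.919 and 0.908 CPM in UT (log2 fold change 1.82 ± 0.31, adjusted p = 5.73e-06), and markers of other lineages had 2 higher of 10 (median 0.14), HBA1 (1.73 ± 0.25) and COL3A1 (0.55 ± 0.16). Of the neuroblastoma markers ISL1 was the other that rose (0.35 ± 0.11, adjusted p = 0.0122), 7 were not called, and HAND2 was at 0.0057 ± 0.19 (adjusted p = 0.99).

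**Figure D4:**
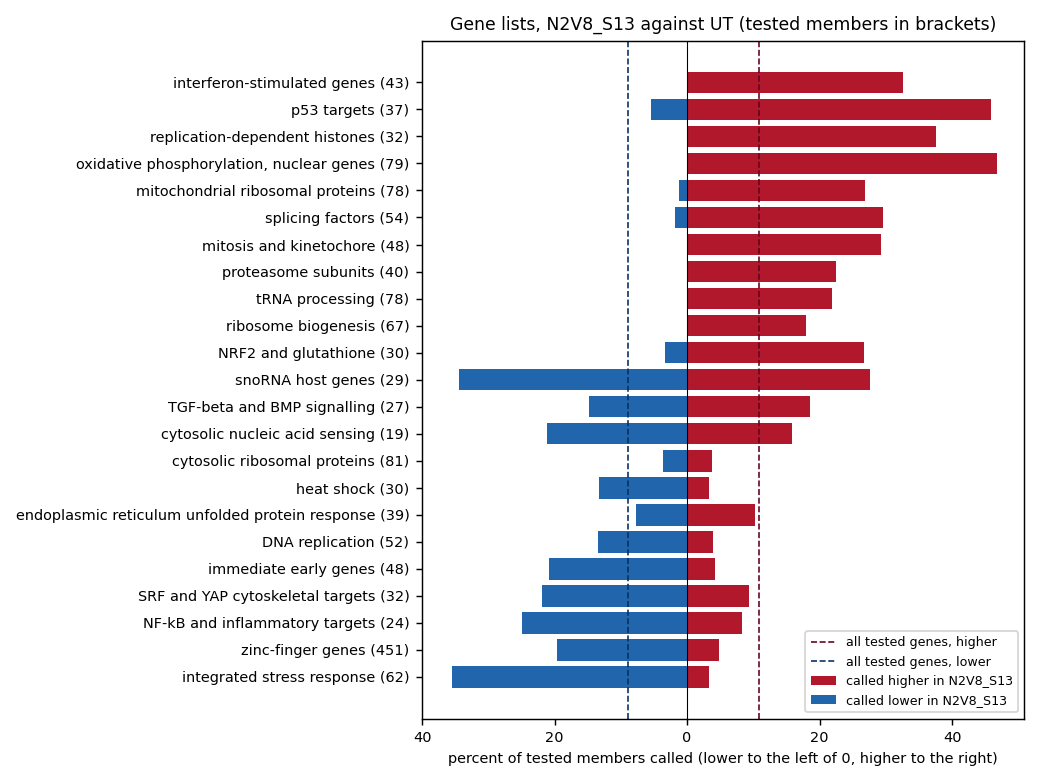
Percent of the tested members of a selection of the gene lists that were called higher (red, to the right of 0) or lower (blue, to the left of 0) in N2V8_S13 than in UT, with the number tested in brackets; dashed lines mark the same percents over all tested genes, 10.9 and 8.95. Oxidative phosphorylation has 37 higher and 0 lower, the integrated stress response 2 higher and 22 lower, and zinc-finger genes 22 higher and 89 lower.

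N2V8 with the non-targeting crRNA also differed from UT, in 4514 genes (29.4%), so N2V8_S13 was also tested directly against N2V8_NTG. That test called 434 genes (2.82%), 310 higher (2.02%) and 124 lower (0.806%) in N2V8_S13. At an unadjusted p under 0.05, 3009 genes differed. Without N2V8_S13 replicate 3 it called 280. Of the 62 stress response members, 17 were higher in N2V8_S13 than in N2V8_NTG and none lower (1 at an unadjusted p under 0.05 by edgeR), with a median of 0.23. Of single members, CHAC1 averaged 38.6 ± 5.06 CPM in N2V8_S13, 20.7 ± 2.18 CPM in N2V8_NTG and 51.6 ± 3.37 CPM in UT (SD, n = 3), a difference of 0.89 ± 0.13 from N2V8_NTG (adjusted p = 9.94e-07). SLC7A11 (0.84 ± 0.21), ASNS (0.72 ± 0.12), PCK2 (0.68 ± 0.13) and SLC1A4 (0.58 ± 0.13) were likewise higher than in N2V8_NTG. N2V8_NTG against UT had 37 of the 62 members lower and 2 higher, beside 2217 lower and 2297 higher of all 15378 genes tested. By the estimates of both tests N2V8_S13 lay above N2V8_NTG and below UT for these 5 genes. ASNS was not called against UT, as given above. The difference from N2V8_NTG was not particular to crRNA-13 by the mean library median of the stress response list against the UT mean. That median was -0.46 in N2V8_NTG and -0.24 in N2V8_S13. In N2V8_S3, N2V8_S4 and N2V8_S7, which also lay above N2V8_NTG, it was -0.25, -0.12 and -0.08. Of 451 zinc-finger genes 18 were higher and 0 lower than in N2V8_NTG, beside 2.02% higher and 0.806% lower over all tested genes.

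In other lists, 6 of 48 immediate early genes were higher in N2V8_S13 than in N2V8_NTG and 1 lower, 4 of 32 histones were higher and 0 lower, 5 of 30 heat shock genes were lower and 0 higher, and 5 of 78 mitochondrial ribosomal proteins were lower and 0 higher. Over all tested genes the shares in that test were 2.02% higher and 0.806% lower. The p53 target EDA2R (0.33 ± 0.11, adjusted p = 0.0251), OVGP1 (0.497 ± 0.15) and PVT1 (0.38 ± 0.14) were higher than in N2V8_NTG, in the direction of their difference from UT. For AEN, ID3 and BAX the differences from N2V8_NTG were -0.06, -0.03 and 0.0037, with 95% intervals of -0.16 to 0.05, -0.19 to 0.12 and -0.14 to 0.14. ACTA2 had 27.3, 26.2 and 24.4 CPM in N2V8_S13, 11.5, 12.7 and 13.7 CPM in N2V8_NTG and 19.01, 16.01 and 18.2 CPM in UT, a difference of 1.05 ± 0.12 from N2V8_NTG (adjusted p = 2.28e-10). CZ1P-ASNS, a pseudogene locus that runs into ASNS and shares its reads, differed by 3.17 ± 0.32 from UT and 0.70 ± 0.25 from N2V8_NTG. Of genes called higher in both tests, the largest changes were in genes close to 0 in UT. The fatty acid hydroxylase CYP4F3 had 6, 13 and 22 counts in N2V8_S13 and 0, 0 and 0 in UT, 13.1-fold higher against a floor of 3 counts over the UT libraries. Its neighbour CYP4F2 had 7, 5 and 5 counts in N2V8_S13 and 0, 0 and 0 in UT, 5.45-fold higher against the same floor, and the 2 genes share sequence. MEP1A, a metalloprotease, had 14, 13 and 7 counts in N2V8_S13 and 0, 1 and 0 in UT, and the sarcomere gene MYPN had 20, 18 and 14 in N2V8_S13 and 0, 1 and 3 in UT.

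Of genes lower in both tests, the 5 largest falls were NUDT4P2 (-1.99 against UT and -1.82 against N2V8_NTG), SLC12A5 (-1.98 and -1.93), GOLGA2P10 (-1.79 and -2.23), KCNAB1 (-1.73 and -1.59) and MIF-AS1 (-1.05 and -0.86). All 5 are low, and each lost its call against UT when 1 library was left out. MIF-AS1 was not called without UT replicate 1 (log2 fold change -0.67, adjusted p = 0.142). KCNAB1 was not called without UT replicate 3 (log2 fold change -1.29, adjusted p = 0.0851). SLC12A5 was not called without N2V8_S13 replicate 2 (log2 fold change -1.51, adjusted p = 0.0651). GOLGA2P10 was not called without N2V8_S13 replicate 2 (log2 fold change -1.74, adjusted p = 0.088), N2V8_S13 replicate 3 (log2 fold change -1.28, adjusted p = 0.143), UT replicate 2 (log2 fold change -1.70, adjusted p = 0.0904) or UT replicate 3 (log2 fold change -1.52, adjusted p = 0.124). NUDT4P2 was not called without N2V8_S13 replicate 2 (log2 fold change -1.34, adjusted p = 0.153), N2V8_S13 replicate 3 (log2 fold change -1.77, adjusted p = 0.0899) or UT replicate 1 (log2 fold change -1.80, adjusted p = 0.0861).

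Native RfxCas13d with the same crRNA differed from UT in 3151 genes (20.5%), and the test between N2V8_S13 and WT_S13 called 510 (3.32%), 243 higher (1.58%) and 267 lower (1.74%) in N2V8_S13. In OVGP1 and EDA2R the libraries labelled WT_S13 lay with the N2V7 and N2V8 groups and away from the other groups with native RfxCas13d, as given further on. By the median of histone genes on the log2 scale against the UT mean, WT_S13 was at 1.26 and N2V8_S13 at 0.68. WT_S3, WT_S4 and WT_S7 were at 0.98 to 1.07, WT_NTG at 0.0052 and N2V8_S3 at 1.14, the nearest of these to WT_S13. By the median of zinc-finger genes, WT_S13 (-0.04) lay near WT_NTG, WT_S3 and WT_S4 (-0.06 to -0.05), with N2V8_S13 at -0.15 and WT_S7 at -0.21. By that of the integrated stress response, WT_S13 (-0.25) lay near N2V8_S13 (-0.24). There WT_NTG, WT_S3 and WT_S4 were at -0.01 to 0.02 and WT_S7 at -0.55. Histones had 12 of 32 called, with 1 higher and 11 lower of 32 in N2V8_S13 than in WT_S13 and a median of -0.77. H4C15 had 47.7, 47.9 and 39.9 CPM in N2V8_S13, 152, 153 and 133 CPM in WT_S13 and 20.2, 27.04 and 20.3 CPM in UT, a difference of -1.69 ± 0.15 from WT_S13 (adjusted p = 2.78e-11). H2BC21 (-1.28 ± 0.12) and H3C6 (-1.01 ± 0.20) were lower than in WT_S13 too, although both exceeded UT. The rRNA share was 3.98 to 4.96% in N2V8_S13 and 1.79 to 2.30% in WT_S13. DDB2, a DNA damage sensor and p53 target, had 65.4, 62.96 and 63.5 CPM in N2V8_S13 and 39.8, 42.3 and 34.7 CPM in WT_S13 (0.72 ± 0.10, adjusted p = 6.99e-08). CNOT10, of the deadenylase complex, differed by 0.56 ± 0.06 and SMPD2, a sphingomyelinase, by 0.75 ± 0.15. The immediate early gene EGR1 had 39.8, 38.1 and 46.7 CPM in N2V8_S13 and 22.2, 24.2 and 27.3 CPM in WT_S13 (0.75 ± 0.16, adjusted p = 0.000551). INHBE was lower than in WT_S13 (-0.59 ± 0.14), whereas TRIB3 (-0.09 ± 0.15, 95% interval -0.40 to 0.22) and ATF5 (-0.12 ± 0.24, 95% interval -0.62 to 0.37) did not pass. Of 451 zinc-finger genes 1 was higher and 29 were lower in N2V8_S13 than in WT_S13, beside 1.58% higher and 1.74% lower over all tested genes.

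The mean of N2V8_S3, N2V8_S4 and N2V8_S7 differed from UT in 3102 genes (20.2%). Between N2V8_S13 and that mean 141 genes were called (0.917%), 112 higher (0.728%) and 29 lower (0.189%), and 1260 at an unadjusted p under 0.05. When the adjustment ran within that comparison alone 5 genes were called, all higher in N2V8_S13. OVGP1 (0.49 ± 0.12), PVT1 (0.54 ± 0.11), ZNF767P (0.76 ± 0.12) and UAP1L1 (0.46 ± 0.09) were higher than that mean. The stress response list had 0 calls in either direction against it (0 at an unadjusted p under 0.05 higher and 21 at an unadjusted p under 0.05 lower, by edgeR), with a median of -0.10. DNAI4, a dynein chain of cilia, had 4.27, 4.64 and 5.01 CPM in N2V8_S13, 2.80, 2.96 and 2.43 CPM in N2V8_NTG, 3.06, 3.88 and 1.86 CPM in WT_S13 and 0.823, 0.460 and 0.908 CPM in UT. It was higher in N2V8_S13 than in N2V8_NTG (0.76 ± 0.26), WT_S13 (0.66 ± 0.25) and the mean of the additional crRNAs (0.87 ± 0.21), and was named after its values were seen.

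Across all 18 groups the leading genes fell into different orders, given here as a description. OVGP1 averaged 15.1 ± 2.24 CPM in N2V8_S13 (SD, n = 3 in each group), 5.92 to 18.3 CPM in the other N2V8 groups and 11.1 ± 1.56 CPM in WT_S13. It was 2.34 ± 0.830 CPM in cells with native RfxCas13d and the non-targeting crRNA (WT_NTG), 1.52 ± 0.102 and 2.54 ± 0.494 CPM in cells given the antisense oligonucleotides ASO2 and ASO4, and 2.01 ± 0.635 CPM in UT. EDA2R had the same split: 18.2 ± 1.18 CPM in N2V8_S13 and 19.9 ± 2.09 CPM in WT_S13, but 9.58 ± 0.599 CPM in WT_NTG, 9.26 ± 1.70 CPM in WT_S3, 6.97 ± 0.474 CPM in WT_S7 and 6.18 ± 1.08 CPM in UT. WT_S13 was thus the 1 group with native RfxCas13d whose libraries all lay within or above the range of the N2V7 and N2V8 groups for EDA2R, and the other 4 lay nearer to UT. ID3 split otherwise, at 57.2 ± 7.36 CPM in N2V8_S13, 62.5 ± 1.90 CPM in WT_S13 and 54.5 ± 2.84 CPM in WT_NTG, and at 26.8 ± 0.197 CPM in ASO2, 33.7 ± 4.78 CPM in ASO4 and 24.7 ± 0.989 CPM in UT. All 15 plasmid-transfected groups had a higher mean ID3 level than both oligonucleotide groups and UT. TRIB3 averaged 39.3 ± 6.79 CPM in N2V8_S13, 30.3 ± 2.52 CPM in WT_S7, 79.3 ± 8.77 CPM in WT_NTG, 113 ± 11.9 CPM in ASO2 and 99.6 ± 6.25 CPM in UT. The list of p53 targets had a mean library median of 0.30 in N2V8_S13, 0.25 in WT_S13, 0.11 in WT_NTG, -0.02 to 0.04 in WT_S3, WT_S4 and WT_S7, 0.00075 in ASO2 and 0.11 in ASO4 on the log2 scale against the UT mean. It was 0.25 to 0.35 in the other N2V8 groups and 0.17 to 0.39 in the N2V7 groups.

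**Figure D5:**
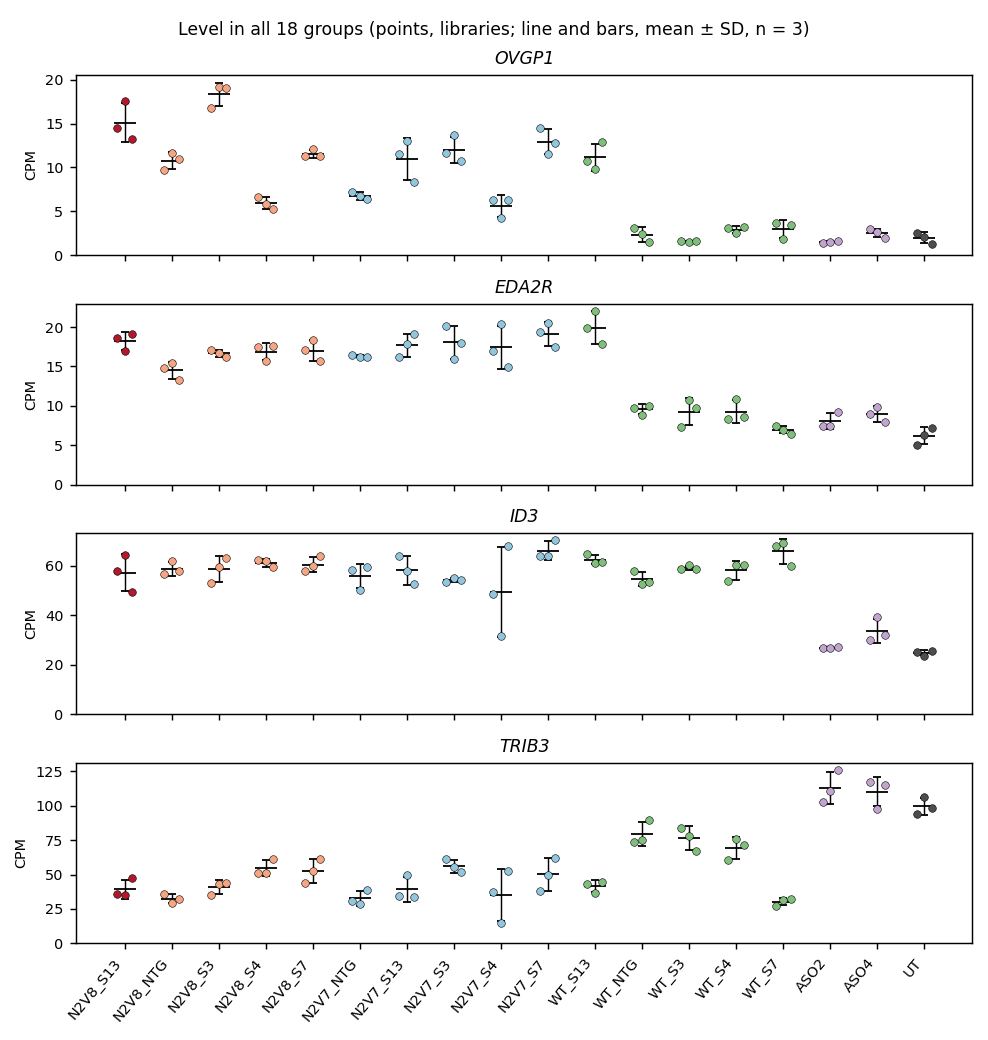
Level in CPM of OVGP1, EDA2R, ID3 and TRIB3 in each library of the 18 groups, with N2V8_S13 at the left and UT at the right; lines and bars are means and SD of 3 libraries. OVGP1 and EDA2R lie nearer to UT than to N2V8_S13 in WT_NTG, ASO2 and ASO4, while ID3 is high in all groups given a plasmid.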

How the data were processed

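Poly(A)-selected, stranded RNA libraries of HEK293T cells were sequenced from both ends. The authors deposited estimated counts per gene, made with Salmon (version 1.5.2) against the spliced transcripts of NCBI, the GRCh38 genome serving as decoy, and summed per gene by tximport with a length correction, so that reads shared between genes were divided by estimate. A TRUE or FALSE mark (unit: other) of genes kept, which the authors deposited beside them, was not used. Counts were rounded to whole numbers.

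Analysis was done in R (version 4.3.3). Genes were filtered with filterByExpr of edgeR (version 4.0.16; 15378 of 38137 left), libraries were scaled by TMM, and all 54 were fitted with edgeR's quasi-likelihood F test, a mean for each group and 1 factor of unwanted variation (RUVr), which took 23.5% of residual variance and rested mostly on N2V7_S4. P-values of all genes in 7 comparisons were adjusted together by Benjamini-Hochberg. Labels and the study describe the 3 libraries of a group as independent biological replicates. The script was tested on simulated data.

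Genes named were C9orf72, the 15 largest rises and 15 largest falls among called genes at a mean log2 CPM of at least 2 whose groups did not overlap, up to 3 called members of each of 35 lists, and the 5 largest rises and falls also called against N2V8_NTG. Other list members were named where their list is described, and NEAT1, MALAT1, PURPL, INHBB and DNAI4 after their values were seen. The genes compared, the lists and these rules were chosen with earlier results of these data known. Alternatives were limma-trend (limma version 3.58.1), DESeq2 (version 1.42.0), other scalings, no filter, no factor, a replicate block, stricter or separate adjustment, the 6 libraries alone, and single libraries left out.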

Additional observations from a re-analysis of the deposited data

Results flagged for a closer look

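For 22 genes at a mean log2 CPM of 2 or more that were called between N2V8_S13 and UT, another group stood on the other side of UT and the difference between that group and N2V8_S13 passed the test itself. Values are log2 differences of N2V8_S13 minus the other group from edgeR, with the fold change of each group against the shared UT libraries in brackets. In many of them the other group lay close to UT. The rule used only the sign of that group's estimate against UT and did not require that difference to be called. Against N2V8_NTG these were ACTA2 at 1.05 (0.56 for N2V8_S13 and -0.49 for N2V8_NTG against UT), NBEA at -0.61 (-0.53 for N2V8_S13 and 0.09 for N2V8_NTG against UT) and PANX2 at 0.44 (0.43 for N2V8_S13 and -0.01 for N2V8_NTG against UT), with adjusted p of 2.28e-10 to 0.00933.

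Against WT_S13, genes higher in N2V8_S13 were CLK1 at 0.47 (0.34 for N2V8_S13 and -0.12 for WT_S13 against UT), CNOT10 at 0.56 (0.51 for N2V8_S13 and -0.05 for WT_S13 against UT), DDB2 at 0.72 (0.46 for N2V8_S13 and -0.26 for WT_S13 against UT) and ELL3 at 0.44 (0.43 for N2V8_S13 and -0.01 for WT_S13 against UT). Further such genes were MICU3 at 0.55 (0.53 for N2V8_S13 and -0.03 for WT_S13 against UT), RANBP17 at 0.64 (0.50 for N2V8_S13 and -0.15 for WT_S13 against UT), SH3GLB2 at 0.38 (0.33 for N2V8_S13 and -0.05 for WT_S13 against UT) and SMPD2 at 0.75 (0.57 for N2V8_S13 and -0.19 for WT_S13 against UT). Adjusted p of these differences ran from 9.26e-11 to 0.0363. Genes lower in N2V8_S13 than in WT_S13 were ADM2 at -0.71 (-0.43 for N2V8_S13 and 0.28 for WT_S13 against UT), APOBEC3F at -0.46 (-0.45 for N2V8_S13 and 0.01 for WT_S13 against UT), C22orf46 at -0.68 (-0.59 for N2V8_S13 and 0.09 for WT_S13 against UT) and CEP250 at -0.55 (-0.46 for N2V8_S13 and 0.10 for WT_S13 against UT). Also lower were GPATCH8 at -0.35 (-0.33 for N2V8_S13 and 0.02 for WT_S13 against UT), KIF7 at -0.40 (-0.38 for N2V8_S13 and 0.02 for WT_S13 against UT), OPA3 at -0.39 (-0.33 for N2V8_S13 and 0.05 for WT_S13 against UT) and ZNF431 at -0.35 (-0.34 for N2V8_S13 and 0.02 for WT_S13 against UT). The list went on with ZNF570 at -0.41 (-0.36 for N2V8_S13 and 0.05 for WT_S13 against UT), ZNF587 at -0.39 (-0.37 for N2V8_S13 and 0.02 for WT_S13 against UT) and ZNF669 at -0.45 (-0.40 for N2V8_S13 and 0.05 for WT_S13 against UT). Their adjusted p ran from 1.23e-05 to 0.0306. ACTA2, APOBEC3F, CNOT10, DDB2, RANBP17 and SMPD2 were called against UT with each library left out in turn, and the other 16 lost that call at least once.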

How the results depend on the processing

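The number of genes called between N2V8_S13 and UT ran from 2413 at an adjusted p under 0.01 to 3225 with adjustment within the comparison, with 2927 by DESeq2, 3098 by limma-trend, 2688 without the factor of unwanted variation and 2954 from the 6 libraries alone. Leaving out 1 library, of N2V8_S13, of UT or replicate 2 of N2V7_S4, gave 2570 (without UT replicate 2) to 3231, and 3992 to 4561 for N2V8_NTG, 2797 to 3195 for WT_S13 and 2572 to 3190 for the additional crRNAs against UT. No gene that is named and called against UT changed direction under any alternative, while the uncalled ISG15, IRF9 and DNAJB1 took either sign when 1 library was left out, and C9orf72 stayed uncalled at -0.23 to -0.16 with adjusted p of 0.108 to 0.32.

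The tests of differences moved more. N2V8_S13 against N2V8_NTG gave 434 calls, 240 with adjustment within the comparison, 203 at an adjusted p under 0.01, and 280 (without N2V8_S13 replicate 3) to 549 with 1 library left out. N2V8_S13 against WT_S13 gave 510, 260 and 259 under the same settings and 434 to 538 with 1 library left out. N2V8_S13 against the mean of the additional crRNAs gave 141, 5 and 39, 266 without a low-count filter, and 126 to 159 with 1 library left out. The counts fall within a comparison because the joint adjustment shares its threshold with comparisons that have many more calls.

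Labels give groups the same replicate numbers, but residuals of same-numbered libraries of N2V8_S13 and UT correlated at -0.06, -0.02 and -0.03, so the numbers were not taken as pairs. With a replicate block 3064 genes were called in place of 3059, and 2 of 246 named genes lost their call. Depth limits low genes: 549 of the 3059 called genes have a mean log2 CPM under 2, and with 3 libraries a group the spread rests on few samples.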
